A study of Mus musculus with 2 samples.

Results

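Aminoacyl-tRNA synthetases are the enzymes that attach each amino acid to its transfer RNAs. Members were the protein-coding genes that the GENCODE M21 annotation names with an amino acid letter followed by ars, with an optional 2, together with Farsa, Farsb and Eprs. The rule found 37 genes of 21474 protein-coding genes named in the tables, 20 of them cytosolic and 17 mitochondrial, the latter being those whose symbol ends in 2. Their levels were read in total RNA-seq of limb from B6NCrl mouse embryos at embryonic day 10.5. There was 1 group with 2 biological replicates, a pool of limbs from 69 embryos (replicate 1) and a pool from 51 embryos (replicate 2), each of mixed sex. Each library was made from 10 ng of RNA longer than 200 nt, with synthetic spike-in RNAs added. The design holds no contrast between conditions, so levels were compared between genes within the tissue, between compartments and between the libraries. Because the libraries were made from bulk tissue, fewer cells of a type and less RNA per cell cannot be told apart.

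Cytosolic synthetases charge the tRNAs read by ribosomes on nuclear messages, while mitochondrial synthetases, also encoded in the nucleus, are imported to charge the tRNAs transcribed from mitochondrial DNA. Synthetases fall into class I and class II by the fold of the catalytic domain, and several cytosolic enzymes sit in a multi-synthetase complex held together by the scaffold proteins Aimp1, Aimp2 and Eef1e1. Glycyl- and lysyl-tRNA synthetase come from Gars and Kars in both compartments, and mitochondrial glutaminyl-tRNA is made by amidation of glutamyl-tRNA rather than by a separate synthetase. When amino acids run short, the transcription factor ATF4 raises many amino acid transport, synthesis and charging genes, several cytosolic synthetases among them.

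Kars shows how 1 gene can give enzymes with different first residues, so its alternative first coding exons are shown here from the GENCODE M21 transcripts (GRCm38, minus strand), with the start codon in capitals. That of Kars-201 lies at chr8:112011210-112011268 (59 bases) and that of Kars-202 at chr8:112008207-112008352 (146 bases), both coding sequence.
Kars-201: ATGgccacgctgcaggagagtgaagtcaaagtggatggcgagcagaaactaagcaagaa
Kars-202: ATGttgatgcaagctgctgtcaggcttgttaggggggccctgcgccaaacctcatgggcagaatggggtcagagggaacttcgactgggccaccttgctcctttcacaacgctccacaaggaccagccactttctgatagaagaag
The annotated coding sequence was 595 codons in Kars-201 and 624 codons in Kars-202. In human cells, the mitochondrial lysyl enzyme comes from a splice form that adds a targeting sequence at the start of the protein. Whether the mouse form enters mitochondria was not tested.

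Promoters were read from RefSeq on GRCm38.p6, from 250 bases before to 50 bases after the annotated start, to look for the core of the amino acid response element that ATF4 binds with C/EBP proteins. Entries were used for 26 of the 37 members, 12 cytosolic and 14 mitochondrial. The strict core searched was TTGCATCA or its reverse complement TGATGCAA. The looser core was TTNCATCA or TGATGNAA, which includes the strict one. The strict core was found in 3 of the 12 cytosolic promoters (Iars, Tars and Yars) and the looser core in 4, with Gars added. Of the 14 mitochondrial promoters, 0 held either. Among all 32851 promoters of the table, 0.895% held the strict core and 3.97% the looser one. The windows of 30 bases around these matches are given 5′ to 3′ on the gene's strand, with the matched letters in capitals and the position of the first matched base counted from the annotated start.
Gars, chr6:55037960-55037989, plus strand, match at -30: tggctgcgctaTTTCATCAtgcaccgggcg
Iars, chr13:49682126-49682155, plus strand, match at 8: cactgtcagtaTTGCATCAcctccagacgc
Tars, chr15:11399655-11399684, minus strand, match at -15: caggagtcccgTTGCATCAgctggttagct
Yars, chr4:129189895-129189924, plus strand, match at 4: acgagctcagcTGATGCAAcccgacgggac
A match says only that these letters are present. Binding was not measured.

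Every synthetase was expressed in the limb. All 37 members reached a TPM (a level per transcript length, scaled to the library) of 1 in both libraries, against 55.2% of all named protein-coding genes. At a TPM of 5 in both libraries, 36 of 37 remained, and the exception was Mars2, the mitochondrial methionyl enzyme. All 20 cytosolic enzymes and 9 of the 17 mitochondrial enzymes lay above 21.3 TPM, the median of the 11853 expressed protein-coding genes. Member genes took 0.642% of gene counts in replicate 1 and 0.594% in replicate 2. The median level of the cytosolic enzymes was 111.8 TPM in replicate 1 and 110.8 TPM in replicate 2, and that of the mitochondrial enzymes 23.2 and 23.1 TPM. The libraries thus gave nearly the same median for each compartment, while the compartments stood well apart.

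**Figure D1:**
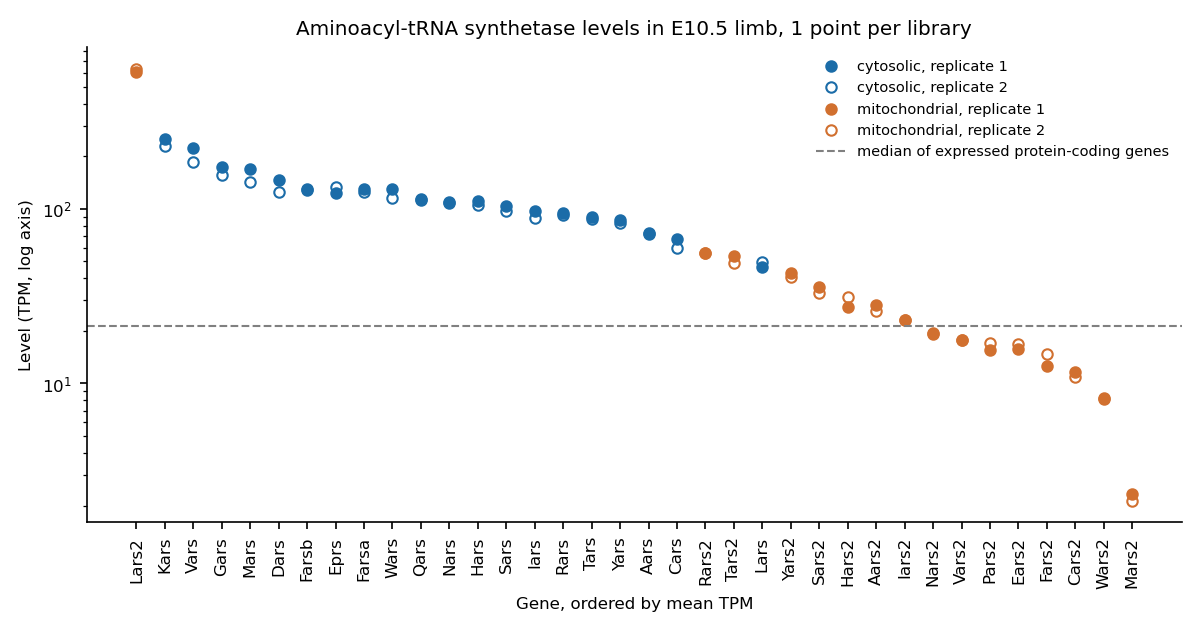
Level of 36 synthetase genes in TPM on a log axis, in order of the mean, with 1 filled point for replicate 1 and 1 open point for replicate 2. Lars2 lies above all cytosolic genes, Lars is the lowest cytosolic gene at 48.0 TPM, and the dashed line marks the median of expressed protein-coding genes at 21.3 TPM.

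Libraries held 38932256.93 and 42465763.94 expected counts over Ensembl genes, and all members had at least 531 counts in each. Limb mesenchyme markers were expressed in 8 of 8 cases, with a summed level of 888 TPM in replicate 1 and 1073 TPM in replicate 2. Embryonic red cell markers were present in 5 of 5, with summed levels of 11725 and 9550 TPM. Of the neural tube markers 0 of 5 were expressed and of the liver markers 1 of 4 (Apoa1, 1.08 and 1.42 TPM). The libraries differed beyond counting noise: chi-square over genes divided by its degrees of freedom was 34.3.

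Lars2, which charges mitochondrial leucine tRNA, was the most abundant member. Its level was 604.75 TPM in replicate 1 and 636.29 TPM in replicate 2 (620.5 ± 22.3, SD, n = 2), from 60977 and 66847 counts. That was 2.41 and 2.78 times the level of Kars, the highest cytosolic gene, and 10.9 and 11.4 times that of Rars2, the mitochondrial arginyl enzyme. Lars2 alone made up 58.4% and 60.1% of the summed TPM of the mitochondrial enzymes, and 24.4% and 26.5% of all member counts. Without it, the sum of the other 16 mitochondrial enzymes was 431.7 and 422.6 TPM, against 2469 and 2298 TPM for the 20 cytosolic enzymes. The tables hold a single Lars2 transcript and no read positions, so the spread of these reads along the transcript could not be seen. The M21 transcript is 3894 bases long, with 989 bases after its last coding base. It shared 42 of its 3864 stretches of 31 bases with other annotated genes, all between positions 3172 and 3329, beyond the coding sequence. AA474408, which holds 26 of these stretches, had 86 and 139 counts, and Gm15564, which holds 22, had 3 and 1. Their part in the level of Lars2 was not tested. No genome sequence was used here, so whether the 3′ end of Lars2 also matches ribosomal RNA or other sequence outside the annotated transcripts was not tested. Its rank, its share of the mitochondrial sum and the leucine comparison all rest on this level.

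Cytosolic enzymes spanned 48.0 to 240.1 TPM by their means. Kars, which charges lysine tRNA, had 251.32 and 228.88 TPM in replicates 1 and 2. Vars, the valyl enzyme, had 223.42 and 186.72 TPM. Gars, the glycyl enzyme, had 173.19 and 155.8 TPM. These followed Lars2 in the order, and Kars, Vars and Gars were separated from their neighbours above both in library values and in the deposited TPM intervals. Mars, the methionyl enzyme, followed with 170.3 and 141.99 TPM, and its interval was not apart from that of Gars. The length-scaled level of Mars rests in part on Mars-203, a transcript of 621 bases that took 38.4% and 33.1% of its TPM but only 910 and 682 of 8492 and 8069 counts. The place of Vars above Gars rests on forms not annotated as coding, which took 35.8% and 30.9% of Vars TPM. With coding transcripts alone, Vars had 143.38 and 129.1 TPM and Mars 160.36 and 135.91 TPM, while Gars kept its level. Vars was then below both in each library.

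From Dars to Nars, no neighbouring genes had deposited intervals apart in both libraries. Dars, the aspartyl enzyme, had 146.16 and 124.41 TPM, so that its lower library fell below the levels of Farsb in both libraries. Farsa and Farsb, the alpha and beta subunits of cytosolic phenylalanyl-tRNA synthetase, which work as a tetramer with equal numbers of each, had 130.15 and 125.43 TPM against 129.46 and 129.16 TPM. The ratio of Farsa to Farsb was 1.01 in replicate 1 and 0.971 in replicate 2, so neither gene was higher in both libraries. With coding transcripts alone, Farsa had 105.36 and 100.98 TPM and Farsb 121.36 and 118.34 TPM, and the ratio was 0.868 and 0.853, so that Farsb was then higher in both. Other forms took 19.0% and 19.5% of Farsa TPM, against 6.26% and 8.38% of Farsb. Eprs, a single protein that charges both glutamate and proline tRNA, had 122.56 and 133.14 TPM. Wars, Qars and Nars, the tryptophanyl, glutaminyl and asparaginyl enzymes, had means of 123.4, 113.5 and 109.0 TPM.

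Hars, Sars, Iars, Rars, Tars and Yars, for histidine, serine, isoleucine, arginine, threonine and tyrosine, lay between 108.2 and 84.9 TPM. Aars, the alanyl enzyme, had 72.42 and 71.61 TPM and Cars, the cysteinyl enzyme, 67.11 and 59.53 TPM. By gene TPM, the lowest cytosolic gene was Lars, the leucyl enzyme, with 46.6 and 49.36 TPM. By the means, Lars was the only cytosolic enzyme to lie below a mitochondrial enzyme other than Lars2, since Rars2 and Tars2 had higher means. Its library values overlapped those of Tars2, the neighbour above (53.5 and 49.2 TPM). The place of Lars as lowest rests on forms of Qars not annotated as coding. With coding transcripts alone, Qars had 40.67 and 42.67 TPM, below Lars in both libraries. That was also below the coding levels of Rars2 (44.72 and 44.43 TPM) and Tars2 (53.5 and 49.2 TPM). Among the 36 neighbouring genes in the whole order, 10 pairs had deposited intervals apart in both libraries and 22 had library values that did not overlap.

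Apart from Lars2, the mitochondrial enzymes formed a graded series. Rars2 had 55.54 and 55.94 TPM, and Tars2, the threonyl enzyme, 53.5 and 49.2 TPM. Yars2, Sars2, Hars2, Aars2 and Iars2 followed between 41.9 and 23.1 TPM, all above the median of expressed genes. Nars2, Vars2, Pars2, Ears2, Fars2, Cars2 and Wars2 lay below it, from 19.4 to 8.20 TPM. Mars2 came last with 2.32 and 2.13 TPM. Its 691 and 661 counts were close to the 670 and 712 of Wars2, but were divided by an effective length of 11195 bases. The median of the mitochondrial enzymes without Lars2 was 21.2 TPM in replicate 1 and 21.3 TPM in replicate 2, which is the level of a typical expressed gene in this limb tissue.

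For 17 amino acids the tables hold a gene for each compartment, with Eprs standing for both glutamate and proline and Farsa for phenylalanine. The cytosolic gene was higher, with deposited intervals apart in both libraries, for 16 of the 17, and the mitochondrial gene for 1. Any pair of expressed protein-coding genes was separated in this way in 89.4% of cases, so that separation alone is common and the direction is what the comparison adds. The median of log2 (cytosolic TPM + 1) minus log2 (mitochondrial TPM + 1) over the 17 amino acids was 1.96. Over the 16 with the cytosolic gene higher, the difference ran from 0.73 for arginine to 5.60 for methionine. No p is given, because flipping the signs of 2 values allows none below 0.5 in an exact test, and the SD over libraries serves as the error.

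The widest gap was that of methionine, where Mars exceeded Mars2 by 5.69 in replicate 1 and 5.51 in replicate 2 on the log2 scale. This gap rests on length scaling. Mars had 8492 and 8069 counts and Mars2 691 and 661, the latter divided by an effective length of 11195 bases. The short Mars-203 also raised the TPM of Mars. With a pseudocount of 0.1 or 0 in place of 1, the mean difference was 6.07 or 6.13. Tryptophan followed with 3.85 and 3.66 for Wars over Wars2, and valine with 3.59 and 3.33 for Vars over Vars2. Both phenylalanyl subunits exceeded Fars2, by means of 3.14 ± 0.19 (SD, n = 2) for Farsa and 3.15 ± 0.16 for Farsb. The bifunctional Eprs exceeded Ears2 by 2.88 and 2.92, and Pars2, the prolyl enzyme, by 2.89 and 2.90. At the narrow end were tyrosine (0.99 and 1.01), threonine (0.74 and 0.81) and arginine (0.76 and 0.70). Leucine was inverted, at -3.67 in replicate 1 and -3.66 in replicate 2. The low level of Lars and the high level of Lars2 both enter that value, and its library SD was 0.0057.

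**Figure D2:**
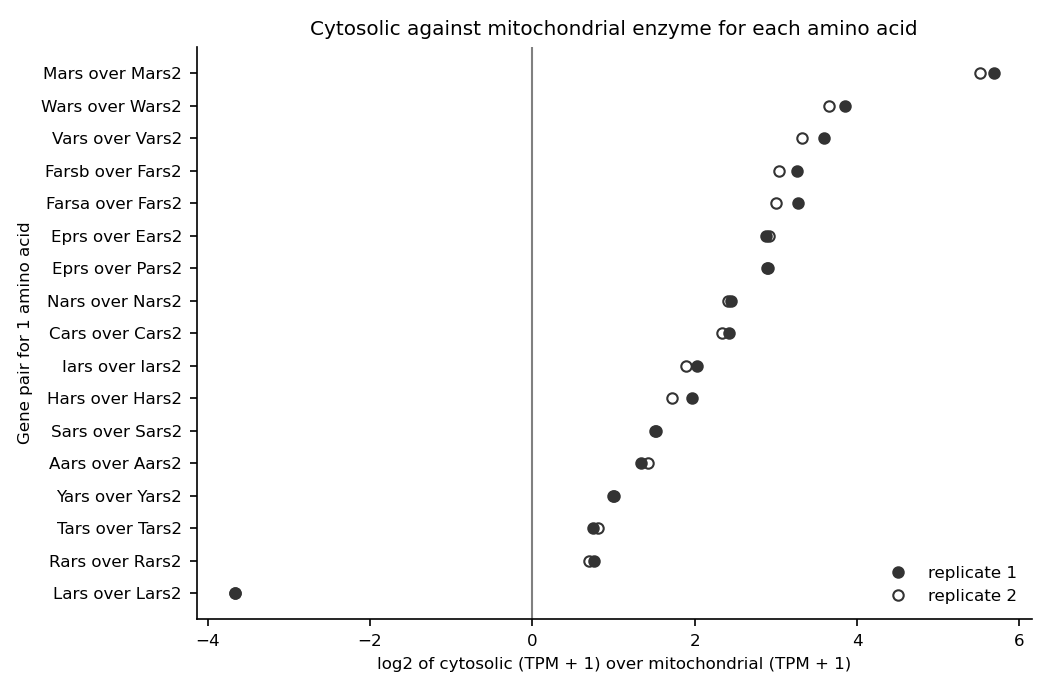
Log2 difference between the cytosolic and the mitochondrial enzyme of an amino acid, with 1 point per library and a pseudocount of 1 TPM. All pairs shown but leucine lie right of 0, from 0.73 for arginine to 5.60 for methionine, and leucine lies at -3.67.

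The amino acids without a separate mitochondrial synthetase were glycine, lysine and glutamine. Kars and Gars, whose products serve both compartments, ranked 2 and 4 among the members. Kars-201 took 84.1% of Kars TPM in replicate 1 and 85.2% in replicate 2. Kars-202, with the alternative start shown above, took 13.3% and 13.2%, a level of 33.34 and 30.14 TPM. A further coding form, Kars-203, took 2.65% and 1.69%. The level of Kars-202 lay within the range of the dedicated mitochondrial enzymes, between Sars2 (35.58 and 33.08 TPM) and Hars2 (27.57 and 31.49 TPM), although its library values overlapped those of both. Gars had 1 transcript in the tables, so forms that differ in their start codon could not be separated.

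For glutamine, the mitochondrial route uses the amidotransferase subunits Qrsl1, Gatb and Gatc, which convert glutamyl-tRNA after charging by Ears2. Qrsl1 had 23.54 and 26.28 TPM, Gatb 24.45 and 22.08 TPM and Gatc 27.84 and 28.65 TPM. The subunit levels lay within a narrow range, above Ears2 itself at 15.82 and 16.74 TPM. Mtfmt, which formylates the methionyl-tRNA that starts mitochondrial translation, had 17.83 and 19.21 TPM, against 2.32 and 2.13 TPM for Mars2. These 4 genes had a median of 24.1 TPM, close to the 23.1 TPM of the mitochondrial synthetases.

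By fold of the catalytic domain, class II genes had the higher median in both compartments. Cytosolic class I enzymes (9 genes) had a median of 97.53 TPM in replicate 1 and 91.77 TPM in replicate 2. Class II enzymes (10 genes) had medians of 120.0 and 116.1 TPM. In mitochondria the medians were 17.64 and 17.72 TPM for 9 class I genes and 27.82 and 28.75 TPM for 8 class II genes. The ranges overlapped widely, since class I held both Lars2 and Mars2 and both Vars and Lars. Eprs, with a domain of each class, was left out of both cytosolic medians.

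The 8 enzymes of the multi-synthetase complex were Eprs, Iars, Lars, Qars, Kars, Rars, Dars and Mars. Their median was 117.8 TPM in replicate 1 and 119.1 TPM in replicate 2. The 12 cytosolic genes outside the complex had medians of 110.3 and 106.9 TPM. Within the complex the levels were not equal, by mean gene TPM from 48.0 for Lars to 240.1 for Kars. Its scaffold proteins had levels in the same range. Aimp1 had 67.39 and 61.05 TPM, Aimp2 124.65 and 107.88 TPM, and Eef1e1 94.27 and 76.32 TPM. Downstream of charging, Eef1a1, which carries charged tRNA to the cytosolic ribosome, had 3358 and 3279 TPM. Its mitochondrial counterpart Tufm had 168.5 and 149.1 TPM, and Tsfm, which recycles Tufm, 95.8 and 91.5 TPM.

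Not all of these levels came from coding transcripts. In 23 members over 90% of TPM was assigned to annotated protein-coding transcripts in both libraries. Wars2 and Qars were among the members under 50% in both. Wars2 was led by a form of 3455 bases annotated for nonsense-mediated decay (breakdown of messages with an early stop), with 41.2% and 47.6%. Its coding share was 35.8% and 30.0%, and the log2 difference of Wars over Wars2 with coding transcripts alone was 5.05 in place of 3.76. Qars, with 18 transcripts, had a coding share of 36.0% and 37.5%. Qars-201, the leading coding form, took 25.5% and 28.5%, and the short Qars-216, annotated for nonsense-mediated decay, 24.9% and 21.3%. These are shares of TPM, in which a short form weighs more than in counts. Of 4549 and 4784 Qars counts, Qars-201 held 2067 and 2431, the coding Qars-203 717 and 483, and Qars-216 498 and 447. The coding part of Qars was thus larger by counts than by TPM. A further 12.4% and 13.3% of Qars lay on a transcript that M21 does not name. Vars had 64.2% and 69.1% of TPM coding, and its mitochondrial partner Vars2 57.0% and 71.7%. By counts, the coding Vars-201 alone held 14147 and 13284 of 18145 and 16278.

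**Figure D3:**
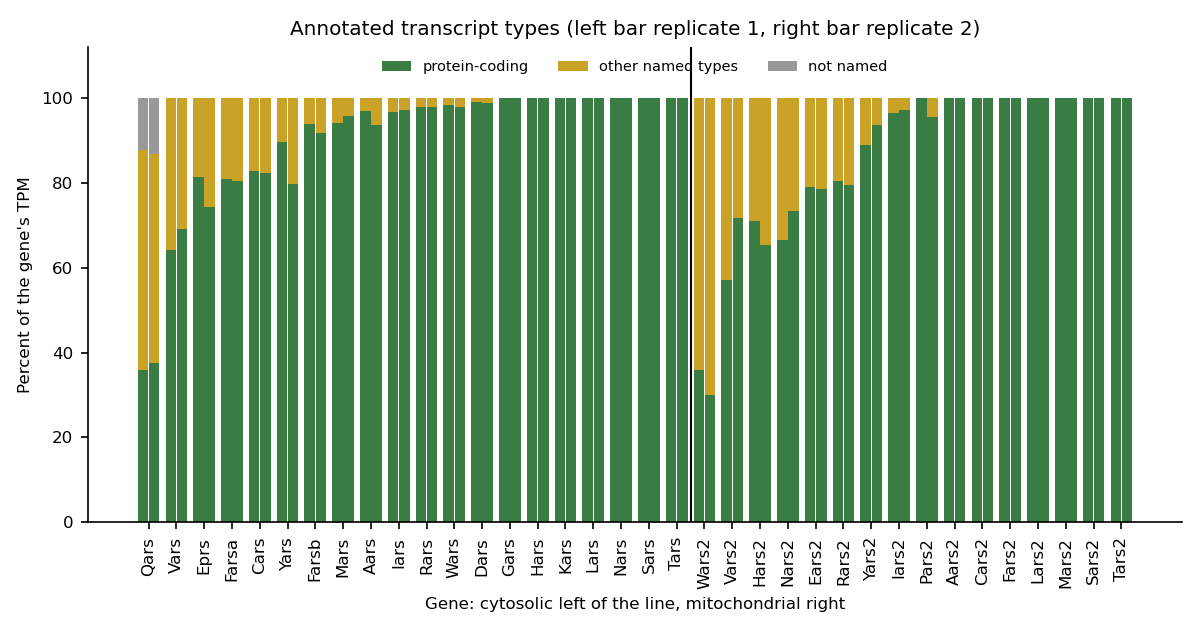
Share of gene TPM by annotated transcript type, in percent, with the left bar for replicate 1 and the right bar for replicate 2, cytosolic genes left of the line. Of the 36 genes shown, Wars2 and Qars are under 50% coding in both libraries.

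The leading transcript was the same in both libraries in all members but Nars2, where coding forms of 3781 bases (33.8% and 36.3%) and 1777 bases (32.7% and 37.0%) were close, and 10 members had a single transcript in the tables. Over the 17 amino acids, coding transcripts alone gave a median log2 difference of 2.37. Leucine did not move, since Lars and Lars2 each had 1 coding transcript. Among the other amino acids the lowest difference with coding transcripts alone was 0.78.

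Several members overlap another gene, and whether reads were assigned by strand is not given in the sources used here. Hars and Hars2 lie head to head and share 195 exonic bases on opposite strands. Iars2 shares 2034 bases with Rab3gap2 (14.8 and 17.3 TPM), and Cars2 shares 422 bases with Naxd (74.3 and 82.95 TPM), both on the opposite strand. Mars shares 68 bases with Ddit3 on the opposite strand (10.2 and 10.7 TPM). Aars shares 1326 bases with Exosc6 on the same strand, and the leading Aars transcript shares 22.7% of its stretches of 31 bases with it. The deposited data give no level for Exosc6 under its M21 identifier, so the 2 genes could not be separated. Iars, in addition, shared 17.7% of its stretches of 31 bases with other genes, mainly the processed pseudogene Gm4849, which had 14.2 and 5.83 counts. How these overlaps bear on the levels was not tested.

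Between the libraries, all 20 cytosolic synthetases were lower in replicate 2 relative to the typical gene. Differences are given in log2 CPM (counts scaled to library size), replicate 2 minus replicate 1, with TMM scaling, a method that centres most genes near 0. The median was -0.21 for cytosolic and -0.15 for mitochondrial enzymes, against 0.0063 for 14172 protein-coding genes, whose middle 50% ran from -0.17 to 0.21. Of the mitochondrial enzymes, 14 of 17 lay below the median of all genes. The size limit used here was an absolute difference of 0.3219, which 3 members passed downward (Dars, Vars and Cars) and 0 upward. Just past the limit was Cars at -0.3225 and just short of it Wars at -0.3217. Among all protein-coding genes, 10.9% were that much lower and 17.9% that much higher. The differences were small but ran 1 way: cytosolic values spanned -0.37 to -0.06.

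Dars had 8068 counts in replicate 1 and 7173 in replicate 2, a log2 difference of -0.37 with a 95% counting interval of -0.42 to -0.33. Vars had 18145 and 16278 counts, a difference of -0.36 (-0.39 to -0.33). Cars had 3812 and 3510 counts, a difference of -0.32 (-0.39 to -0.26). At the other end of the cytosolic list was Lars, at -0.06 (-0.12 to -0.0041). Lars2 was at -0.07 (-0.09 to -0.06). The mitochondrial genes above the median of all genes were Fars2 (0.11, interval -0.03 to 0.26), Vars2 (0.03) and Hars2 (0.0065). These intervals cover counting error only and assign nothing to the embryos, the dissection or the library.

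**Figure D4:**
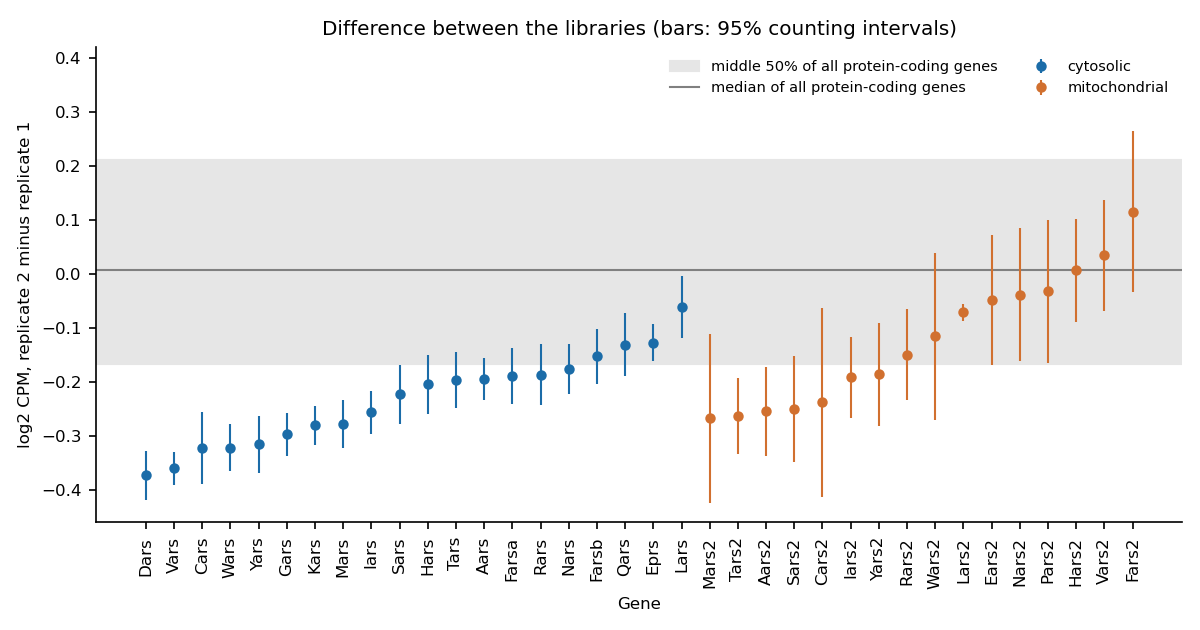
Log2 CPM difference, replicate 2 minus replicate 1, for 36 genes with the 95% counting interval, beside the median (line) and the middle 50% (grey band) of 14172 protein-coding genes. All cytosolic points lie below the line, from -0.37 for Dars to -0.06 for Lars, and Fars2 is the highest at 0.11.

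The sign of these medians depends on scaling, while their place relative to other genes moved little. Deposited TPM shifted the median of all genes by 0.14 and spike-in totals by 0.26 on the log2 scale. The cytosolic median then became -0.06 with TPM and 0.05 with spike-in totals, and the mitochondrial median 0.0065 and 0.11. Relative to the median of all genes, the cytosolic median stayed between -0.22 and -0.20 under TMM, DESeq2 size factors, TPM and spike-in totals, with 20 of 20 below in each. The mitochondrial median stayed between -0.16 and -0.14, with 14 or 15 of 17 below.

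The difference was also read for other genes in 2 ranges of level, without a trend over all levels. Among 2808 protein-coding genes with mean TPM between those of the lowest and highest cytosolic synthetases, the median difference was -0.09 and 72.0% lay below the median of all genes, with the central 95% from -0.44 to 0.33. Among 5618 genes in the range from Wars2 to Rars2, the median was 0.01 and 48.5% lay below. These ranges were chosen after the data were seen. Red cell markers were lower in replicate 2 in 5 of 5 cases and limb mesenchyme markers higher in 6 of 8, with the sums given above. Of 14172 protein-coding genes, 7213 were higher and 6959 lower. Hoxa10, 1 of the 6, was at 0.013, with a counting interval of -0.03 to 0.06. The sums are in TPM, which shifted the median of all genes by 0.14. The markers did not move together: the hindlimb genes Pitx1 (64.98 and 126.52 TPM, log2 difference 0.78) and Tbx4 (19.66 and 41.14 TPM, 0.94) were higher in replicate 2, while the forelimb gene Tbx5 was at -0.27 and Msx1 at -0.18. The part of tissue makeup in the synthetase difference was not tested.

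Genes of the amino acid stress response, a list of Atf4, the upstream kinase gene Eif2ak4 and genes linked to the response, were mixed. Of 13 listed genes, 11 were expressed, 4 passed the same limit downward in replicate 2 and 2 upward, where all protein-coding genes did so in 10.9% and 17.9% of cases, and 1 lay below the count minimum. Chac1, 1 of the 2 upward, had 21 and 31 counts, and its counting interval of -0.49 to 1.23 spans 0. Asns, which makes asparagine, had 105.89 and 84.42 TPM and a log2 difference of -0.54. Psat1, in serine synthesis, had 105.94 and 77.78 TPM and a difference of -0.60. Slc7a11, a cystine carrier, moved the other way, with 1.51 and 3.03 TPM and 0.69. Atf4 itself had 93.11 and 93.78 TPM, a difference of -0.13, and its target Ddit3 10.2 and 10.7 TPM. Chac1 (0.51 and 0.73 TPM) and Nupr1 (0.65 and 0.38 TPM), which are induced under strong stress, stayed below 1 TPM in both libraries. The 4 synthetases named above for a core match in their promoter had differences of -0.30 (Gars), -0.26 (Iars), -0.20 (Tars) and -0.315 (Yars). These lay within the range of the other cytosolic enzymes.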

How the data were processed

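The deposited tables, made per library by the authors, hold expected counts (estimated reads) and TPM, a posterior mean TPM with interval bounds (deposited as a score whose level is not stated), and the percent of gene TPM per transcript. Per the sample text files, they were quantified on mm10 with GENCODE M4. Which aligner and quantifier were run is not given in these sources. Names, types and coordinates came from GENCODE M21 by Ensembl identifier without version. Unnamed rows held 0.297% and 0.293% of gene counts.

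Expected counts were rounded for edgeR 4.0.16 (TMM, log2 CPM, prior count 2), over genes averaging at least 10 counts. DESeq2 1.42.0 size factors, TPM and spike-in totals were other scalings. The scaling step was tested on simulated data with equal numbers of genes raised and lowered. In these libraries more genes passed the limit upward than downward, so that test cannot show which scaling is right here. Counting intervals are exact binomial at 95%. Members, lists and tests were chosen with earlier results of these data known. Levels and their counts and medians cover all 37 members, of which 1 is not reported here by name. The promoter scan leaves 1 member's promoter out. Replicates are separate embryo pools.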

Additional observations from a re-analysis of the deposited data

How the results depend on the processing

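All 37 members stayed expressed with a mean, a posterior mean or a single library, and 36 at a TPM of 5. The cytosolic median TPM was 110.47 with the posterior mean, 121.27 rescaled over Ensembl genes without spike-ins, 108.59 without Gars and Kars, 108.98 with Tarsl2, and 110.83 to 111.77 from single libraries. The mitochondrial median was 22.78 with the posterior mean, 25.224 rescaled, and 23.1 to 23.17 from single libraries. The median log2 difference between compartments was 2.37 with coding transcripts alone and 1.90 to 2.03 from single libraries. The cytosolic enzyme was higher for 16 amino acids from each single library and 14 at 2-fold. The median difference between libraries was -0.057 (TPM) and 0.045 (spike-in totals) for cytosolic and 0.0065 and 0.11 for mitochondrial enzymes, which follows from the shift of all genes by each scaling. Members past the downward limit numbered 3 with TMM, 5 with DESeq2 size factors and 0 with TPM or spike-in totals, and 0 at 1.5-fold or 2-fold. Members past the upward limit numbered 1 with spike-in totals. By expected counts, Kars-201 took 83.6% and Kars-202 14.1%, against 84.08% to 85.15% and 13.17% to 13.27% from single libraries. Under an alternative, 111 of 148 gene levels and 77 of 108 log2 differences between compartments moved by no more than the SD over libraries, and 0 of the latter changed sign. With 2 libraries, a single-library value always lies within that SD of the mean, so the single-library settings pass in every case. The 37 levels and 31 log2 differences that moved by more all came from the remaining settings. Of the 37 single-gene differences between libraries, the sign changed in 1 with DESeq2 size factors, 9 with TPM and 23 with spike-in totals, but not for Dars, Vars or Cars. Mars was already a member by its M21 symbol, so only Tarsl2 was added. A check of protein signatures was not run. No paired analysis was possible because there is 1 group. With 2 libraries the errors are wide, and Mars2, Wars2 and Cars2 rest on the fewest reads.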

Other observations

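Tarsl2, a threonyl-tRNA synthetase paralogue whose symbol falls outside the rule, had 3.56 and 5.03 TPM, far under Tars (90.26 and 87.07 TPM). It was higher in replicate 2 by 0.35 on the log2 scale.

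Enzymes that correct or extend charging were also present. Aarsd1, which clears mischarged alanine tRNA, had 92.83 and 89.18 TPM, above Aars itself. Lower levels were seen for the D-aminoacyl-tRNA deacylases Dtd1 (29.06 and 29.86 TPM) and Dtd2 (17.8 and 17.67 TPM). The prolyl-tRNA editing domain protein Prorsd1 (16.04 and 16.65 TPM) was also lower. Log2 differences between libraries were -0.23 (Aarsd1), -0.15 (Dtd1), -0.13 (Dtd2) and -0.10 (Prorsd1). The counting interval of Prorsd1, -0.31 to 0.10, held the all-gene median.

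Selenocysteine has no synthetase of its own and is made on a serine tRNA charged by Sars (103.43 and 97.25 TPM). Pstk, which phosphorylates that serine, had 59.8 and 52.12 TPM. Sepsecs, which converts it to selenocysteine, had 6.51 and 7.63 TPM, and the elongation factor Eefsec 24.19 and 26.64 TPM. Of the genes named here for this route, Sepsecs had the lowest RNA level in both libraries.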
